A study of Drosophila melanogaster with 63 samples.

Results

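The Tweedle (Twdl) and Osiris (Osi) genes are 2 insect families of cuticle and epithelial genes, and here they are followed through early and middle embryogenesis of Drosophila melanogaster. Members were all measured genes whose current symbol begins with Twdl, or with Osi followed by a digit. There were 37 of them, 22 Osiris and 15 Tweedle, among 9292 named genes measured in the series. The RefSeq gene table (Release 6) lists 51 genes of the families, 25 Osiris and 26 Tweedle, and the other 14, among them Osi13, TwdlG and TwdlT, were not analysed here. The rule uses names alone, but the families were picked for description with earlier results of these data known.

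Tweedle proteins are structural proteins of the cuticle, the chitin and protein layer that the epidermis secretes on its outer side. A dominant allele of TwdlD, known as Tubby, gives short and stout larvae. Osiris genes encode small insect-specific proteins with a signal peptide, many of which are expressed in cuticle-forming epithelia such as the tracheae and the hindgut. Osi23 is needed for the pores of olfactory bristles, and Osi21 affects the trafficking of rhodopsin in photoreceptors. By RefSeq, 22 Osiris genes lie together on chromosome arm 3R in the Triplo-lethal region, which is known for its dosage sensitivity. Far from it on the same arm, 13 Tweedle genes, among them TwdlM, TwdlP, TwdlL, TwdlO, TwdlK, TwdlJ, TwdlN, TwdlD and TwdlQ, form a second cluster. The embryonic cuticle is secreted after the hours sampled here.

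Total RNA of whole embryos was measured in wild type, in mutants for even skipped (eve) and in mutants for fushi tarazu (ftz), at 2, 3, 6, 7, 8, 9 and 10 h after egg laying. Both genes encode homeodomain factors of the pair-rule class, which set up segments in the early embryo. Each of the 21 groups held 3 arrays, 63 in all, and each array set the sample (Cy3) against a common reference gathered across embryogenesis (Cy5). The labels name no alleles, mutant stocks were kept over balancers marked with GFP, and genotyped embryos were collected, so the mutants and wild type can also differ in the background of their stocks. Whether the 3 arrays of a group came from separate collections is not stated, so each p-value reflects variation among these arrays, which may be technical, and their number limits the precision. The titles number the arrays of a genotype in 3 series over 6 to 10 h. The fit takes the arrays of a series as independent, and p-values over these hours are too small if they are not.

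A value is a log2 ratio of sample to reference for 1 probe, so groups can be compared for a gene, while a low ratio of one gene against another gives no order of their RNA levels. The files state neither the log base nor the direction of the ratio; both were read from the range of values and from genes of early embryos, as given under processing, and every direction here rests on that reading. In bulk RNA, fewer cells of a type and less RNA per cell cannot be told apart. A gene is called here when its Benjamini-Hochberg adjusted p over all 12424 features is under 0.05 in limma, a linear model of all 63 arrays with empirical Bayes moderation. Replicate arrays correlated over features with r of 0.51 to 0.95 (median 0.83). The eve transcript was at -1.20 ± 0.14 (SD, n = 3) on the eve mutant arrays at 2 h against 0.51 ± 0.18 in wild type. At 3 h it was at 0.17 ± 0.19 against -0.04 ± 0.14, so at 3 h these are called the arrays labelled eve mutant. The ftz transcript in ftz mutants at 2 h was at 0.67 ± 0.12 against 0.82 ± 0.03 in wild type. The eve mutant arrays at 2 h stood apart, as 21.6% of all features were called against wild type there and 6.1% in ftz mutants at 2 h.

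Both families held genes with ratios far below the reference in every wild type group. A ratio below -1 means less than the reference by over 1 log2 unit. In every one of the wild type groups 9 of 15 Tweedle and 8 of 22 Osiris genes lay below -1, where 1.28% of all features did. Over 6 to 10 h the median wild type ratio was -1.50 for Tweedle genes, -0.06 for Osiris genes and 0.02 for all features. Each ratio is against the gene's own level in the reference, and the means of TwdlM (-2.82), TwdlL (-2.78), TwdlK (-2.43) and Osi6 (-2.35) give no order among them. The 8 low Osiris genes were Osi6, Osi7, Osi9, Osi14, Osi15, Osi18, Osi19 and Osi20. Another 13 Osiris genes stayed within 0.5 of the reference in every wild type group, as 67.2% of all features did, while no Tweedle gene did. Over all 21 groups 6 Tweedle genes (TwdlF, TwdlJ, TwdlK, TwdlL, TwdlM and TwdlN) and 3 Osiris genes (Osi6, Osi9 and Osi18) had every group mean below -1. Whether these probes were above background on the sample side was not analysed here, since only ratios were used, and the lowest value of any array was -3.74.

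**Figure D1:**
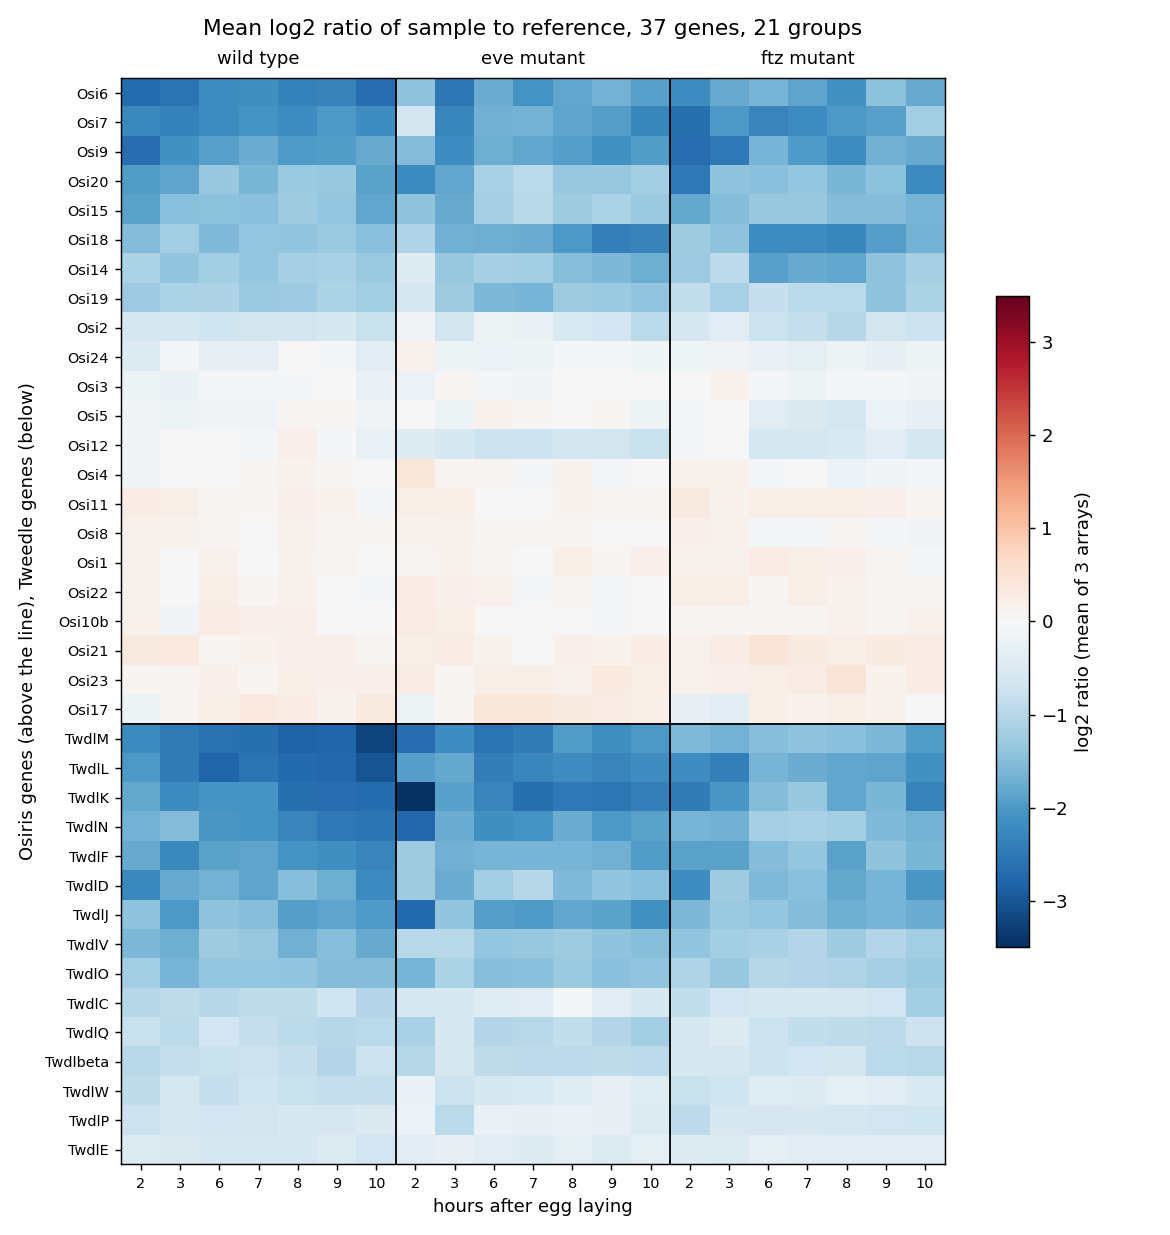
Mean log2 ratio of sample to reference for the 37 genes (rows; Osiris above the line, Tweedle below, each ordered by wild type level at 6 to 10 h) in the 21 groups (columns, hours after egg laying within each genotype), as the mean of 3 arrays. All 15 Tweedle genes are on the blue (below reference) side in wild type, and 13 Osiris genes stay pale, within 0.5 of the reference in every wild type group.

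In wild type few members, and few of all features, were called as changing in these comparisons of 3 arrays with 3. The counts from 3 to 6 h and from 6 to 10 h lie near the shares over all features and say nothing particular of the members. Between 2 and 3 h no member was called higher or lower (limma, Benjamini-Hochberg), with 5 at an unadjusted p under 0.05, while 5.45% of all features were called higher and 6.75% lower. Fitting only these 6 arrays gave 2 calls and array weights gave 4. From 3 to 6 h 1 member rose, where 3.7% of all features were called higher and 3.54% lower. From 6 to 10 h none rose and 3 fell, where 6.63% of all features were called higher and 5.98% lower. Of the 15 Tweedle genes 13 had a lower mean at 10 h than at 6 h, with a median difference of -0.26 against -0.02 for all features, but only TwdlV was called.

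Osi10b, an Osiris gene of the 3R cluster, was called in both steps. It was at 0.01, -0.20 and -0.08 on the 3 wild type arrays at 3 h, at 0.22, 0.20 and 0.42 at 6 h, and at -0.08, 0.07 and 0.02 at 10 h. The 6 h arrays lay above those of both other times. It rose by 0.37 log2 units (SE 0.08; limma adjusted p = 0.00305) and then fell by 0.27 (SE 0.08; adjusted p = 0.0188). The cuticle gene TwdlV was at -0.85, -1.32 and -1.57 at 6 h and at -1.67, -1.79 and -1.86 at 10 h, all below the 6 h arrays. It fell by 0.53 (SE 0.18; adjusted p = 0.0462), and without replicate 1 at 6 h the difference was -0.33 and not called. Osi22, on 3R apart from the cluster, went from 0.16, 0.26 and 0.27 to -0.11, 0.11 and -0.19, again with no overlap, and fell by 0.29 (SE 0.10; adjusted p = 0.0361). Without replicate 1 at 10 h none of the 3 was called. With single arrays left out the smallest differences were -0.21 for Osi10b and -0.23 for Osi22, neither of them called.

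Over the same hours several epidermal genes rose in wild type, where 6.63% of all features were called higher and 5.98% lower. Of the 8 epidermal markers 5 rose between 6 and 10 h and none fell. The rise was not confined to epidermal markers, as 2 of 6 neuronal, 1 of 2 glial and 1 of 5 tracheal markers rose too and none of these fell. The septate junction genes vari, Nrx-IV and cora rose by 1.44 (SE 0.23), 1.20 (SE 0.17) and 0.77 (SE 0.12), and the apical polarity gene crb by 1.04 (SE 0.21). Of 9 measured genes for apical matrix proteins with a ZP domain 3 rose, neo by 0.85 (SE 0.14), tyn by 0.59 (SE 0.18) and qsm by 0.51 (SE 0.15). Of 11 epidermal and cuticle regulators 4 rose and none fell, among them the POU factor gene vvl by 0.53 (SE 0.13) and the hormone receptor genes Hr3 by 0.57 (SE 0.17) and EcR by 0.37 (SE 0.12). Of 15 chitin genes verm, a chitin deacetylase gene, rose by 0.79 (SE 0.19) and Idgf6 fell by 1.30 (SE 0.21), counts near those shares. Of 3 measured genes of ecdysteroid synthesis spo fell by 1.36 (SE 0.33) and dib by 1.23 (SE 0.14), and of 6 tanning genes none was called.

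In eve mutants over 6 to 10 h the Tweedle genes that were called were all higher than in wild type. Called Osiris genes went both ways, at less than the shares over all features, so their counts say nothing particular of the family. Of 15 Tweedle genes 9 were higher and none lower, and of 22 Osiris genes 3 were higher and 3 lower. Over all features 19.6% were called higher and 19.8% lower. The median Tweedle difference was 0.29 log2 units, that of Osiris genes 0.02 and that of all features 0.00292. Tweedle genes kept 1 sign at all 5 times in 7 of the 9 called, and Osiris genes in 3 of the 6.

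TwdlM, a cuticle gene at one end of the 3R cluster, ranged over the 15 arrays of each genotype from -3.50 to -1.97 in wild type (median -2.90) and from -2.69 to -1.34 in eve mutants (median -2.35). It was higher by 0.59 (SE 0.12; limma adjusted p = 0.000101), with means of -2.23 and -2.82. The genotypes overlapped over all 15 arrays, and at 3 of the 5 times the 3 eve arrays lay above the 3 wild type arrays. TwdlC, outside the cluster, ranged from -1.35 to -0.56 in wild type (median -0.91) and from -0.83 to 0.09 in eve mutants (median -0.35). It was higher by 0.54 (SE 0.08; adjusted p = 6.89e-07) and did not overlap at 4 of the 5 times. Higher too were TwdlL by 0.51 (SE 0.15), TwdlD by 0.46 (SE 0.11), TwdlF by 0.35 (SE 0.13), TwdlW by 0.34 (SE 0.06), TwdlN by 0.33 (SE 0.11), TwdlP by 0.29 (SE 0.07) and TwdlE by 0.20 (SE 0.05). The 6 that were not called ran from -0.21 for TwdlJ to 0.14 for TwdlV.

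Osi12, a gene of the Osiris cluster that sat at the reference level in wild type, was the only member whose 15 arrays did not overlap between the genotypes. How many of all features showed no overlap, over 15 arrays or at single times, was not counted in any comparison. It ranged from -0.40 to 0.33 in wild type (median 0.00) and from -1.05 to -0.48 in eve mutants (median -0.69), so no eve array reached the lowest wild type array. It was lower by -0.67 (SE 0.06; limma adjusted p = 5.14e-13) and did not overlap at any of the 5 times. Osi18 ranged from -2.49 to -0.61 in wild type (median -1.47) and from -2.95 to -0.96 in eve mutants (median -2.20). It was lower by -0.63 (SE 0.16; adjusted p = 0.00144), with a mean below wild type at all 5 times and wide overlap between single arrays. Osi10b was lower by -0.12 (SE 0.04), and Osi6, Osi15 and Osi20 were higher by 0.50 (SE 0.14), 0.29 (SE 0.08) and 0.29 (SE 0.11). The 16 Osiris genes not called ran from -0.22 for Osi19 to 0.26 for Osi7.

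In ftz mutants over 6 to 10 h the same comparison again gave Tweedle genes that were higher, with larger differences for TwdlM, TwdlN, TwdlL and TwdlK of the cluster. Of 15 Tweedle genes 9 were higher and none lower, and of 22 Osiris genes 2 were higher and 6 lower. Over all features 20.7% were called higher and 19.7% lower, so the Osiris count was below the first share and somewhat above the second. The median Tweedle difference was 0.32, that of Osiris genes -0.01 and that of all features 0.00532. All 9 Tweedle calls and 7 of 8 Osiris calls kept 1 sign at all 5 times. The wild type arrays are the same as in the eve comparison, so the values of the mutants against wild type are not independent of each other.

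TwdlM ranged from -2.10 to -1.16 in ftz mutants (median -1.55) against -3.50 to -1.97 in wild type. It was higher by 1.24 log2 units (SE 0.12; limma adjusted p = 2.17e-11) and did not overlap at any of the 5 times. TwdlN, of the same cluster, ranged from -2.20 to -0.91 (median -1.29) against -2.75 to -1.64 (median -2.44) and was higher by 0.96 (SE 0.11; adjusted p = 2.08e-09), again without overlap at any time. TwdlL ranged from -2.29 to -1.29 (median -1.83) against -3.74 to -2.13 (median -2.75) and was higher by 0.95 (SE 0.15; adjusted p = 1.49e-06), without overlap at 4 times. TwdlK ranged from -2.69 to -1.13 (median -1.55) against -3.23 to -1.69 (median -2.54) and was higher by 0.72 (SE 0.15; adjusted p = 0.000152), without overlap at 3 times. These 4 cuticle genes were thus highest in ftz mutants, though all stayed below the reference on every array of the 3 genotypes at 6 to 10 h. Higher too were TwdlF by 0.50 (SE 0.13), TwdlV by 0.37 (SE 0.08), TwdlW by 0.36 (SE 0.06), TwdlO by 0.32 (SE 0.10) and TwdlE by 0.23 (SE 0.05).

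Of the Osiris genes, Osi12 was lower in ftz mutants by -0.51 (SE 0.06; limma adjusted p = 5.92e-10), ranging from -0.85 to -0.30 (median -0.52), and did not overlap with wild type at any of the 5 times. Osi18 was lower by -0.64 (SE 0.16; adjusted p = 0.0012), close to its eve value of -0.63. Lower too were Osi14 by -0.38 (SE 0.10), Osi5 by -0.36 (SE 0.09), Osi4 by -0.13 (SE 0.06) and Osi8 by -0.12 (SE 0.05). Osi6 was higher by 0.59 (SE 0.14) and Osi21 by 0.19 (SE 0.07). Called against wild type in both mutants were Osi6, TwdlE, TwdlF, TwdlL, TwdlM, TwdlN and TwdlW, higher in each, and Osi12 and Osi18, lower in each.

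**Figure D2:**
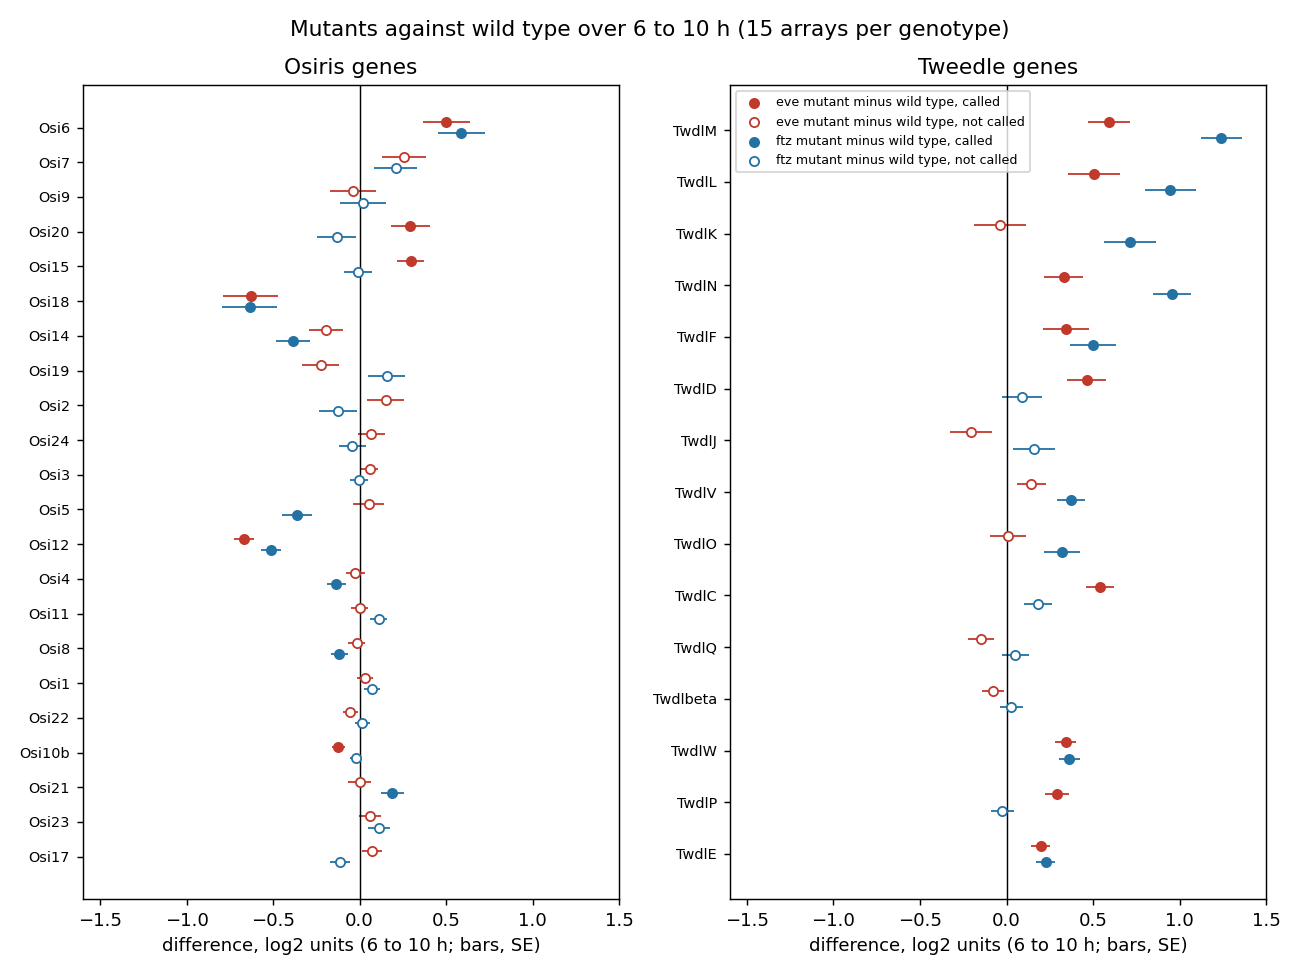
Difference from wild type over 6 to 10 h (log2 units, horizontal axis) for each gene, eve mutants in red and ftz mutants in blue, with SE bars; filled points were called. TwdlM stands at 0.59 in eve and 1.24 in ftz mutants, no called Tweedle gene lies left of 0, and Osi12 and Osi18 lie left of 0 in both mutants.

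Several probes limit which Tweedle gene these values belong to. TwdlE, TwdlO, TwdlQ and Twdlbeta had 2 array rows each, which were averaged. The rows of TwdlO lay at -0.26 and -2.60 in wild type and differed from it in ftz mutants by -0.03 and 0.67, so the called change of TwdlO came from 1 of its rows. In eve mutants the 2 rows differed from wild type in opposite directions for TwdlO (-0.16 and 0.17), TwdlQ (-0.40 and 0.10) and Twdlbeta (-0.21 and 0.05). With rows averaged none of these genes was called there. With the row of largest spread used in place of the mean, 11 members were higher and 4 lower in eve mutants, against 12 and 3. A further row is annotated to both TwdlL and TwdlB and was left out of the members. That row was not called, at -0.28 in eve mutants (SE 0.14; adjusted p = 0.103) and -0.12 in ftz mutants (SE 0.14; adjusted p = 0.527), opposite in sign to the row of TwdlL alone. Genes of the cluster are close paralogs, and whether probes also read their neighbours was not tested.

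The mutants were also set against each other over 6 to 10 h. Tweedle genes went both ways: against ftz mutants, eve mutants had 8 of 15 lower and 3 higher, while 5 of 22 Osiris genes were higher and 4 lower. Over all features 17.3% were called higher in eve mutants and 18.7% lower, and the Osiris counts lay near those shares. Lower in eve mutants were TwdlK by -0.76 (SE 0.15; limma adjusted p = 0.000107), TwdlM by -0.65 (SE 0.12; adjusted p = 3.98e-05), TwdlN by -0.63 (SE 0.11; adjusted p = 2e-05) and TwdlL by -0.44 (SE 0.15; adjusted p = 0.0174). TwdlK ranged from -2.90 to -1.66 in eve mutants (median -2.60), TwdlN from -2.36 to -1.27 (median -2.06) and TwdlL from -2.69 to -1.62 (median -2.35), so all 4 genes overlapped between the mutants. Lower too were TwdlJ (-0.36, SE 0.12), TwdlO (-0.32, SE 0.10, with both rows of the same sign), TwdlV (-0.23, SE 0.08) and TwdlQ (-0.20, SE 0.08). The rows of TwdlQ were at -0.37 and -0.02, so its difference came mostly from 1 of them. In the opposite direction TwdlD, the Tubby gene, was higher by 0.37 (SE 0.11), TwdlC by 0.36 (SE 0.08) and TwdlP by 0.32 (SE 0.07), and TwdlD and TwdlP lie in the same cluster as TwdlK, TwdlM, TwdlN and TwdlL. Among Osiris genes Osi20 was higher by 0.42 (SE 0.11), Osi5 by 0.41 (SE 0.09), Osi15 by 0.30 (SE 0.08), Osi2 by 0.28 (SE 0.11) and Osi17 by 0.19 (SE 0.06). Osi19 was lower by -0.38 (SE 0.11), Osi21 by -0.19 (SE 0.07), Osi12 by -0.16 (SE 0.06) and Osi10b by -0.10 (SE 0.04).

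Runs of slide numbers in the sample titles moved with some of these differences, and the labels do not say what a run is. A run was taken here as a stretch of numbers without a wide gap. Some numbers stand on 2 arrays, at times of different genotypes, so arrays of a run need not have been handled together. With runs as a term, 12 members were called in eve mutants (11 of the 15 above), 7 of the 17 in ftz mutants and 7 of the 20 between the mutants. TwdlL was then not called in any comparison, at 0.47 (adjusted p = 0.116) in ftz mutants, 0.29 (adjusted p = 0.117) in eve mutants and -0.18 (adjusted p = 0.601) between them. TwdlK in ftz mutants was at 0.54 (adjusted p = 0.0786), TwdlN in eve mutants at 0.26 (adjusted p = 0.0551) and Osi18 in ftz mutants at -0.67 (adjusted p = 0.0577), by limma. Within a run only times held by both genotypes were compared. The arrays of a run are among those that gave the calls, so a sign kept there is no independent support. Slides 56 to 74 gave 8 eve and 9 wild type arrays over 5 times, and all 15 eve calls kept their sign there. Slides 80 to 87 shared 1 time, with 1 array of each, where 14 did and TwdlF was at -0.62. Slides 6 to 15 shared 2 of the 5 times, with 3 ftz and 2 wild type arrays, and all 17 ftz calls kept their sign in these. Slides 37 to 45 shared 3 of the 5 times, with 3 arrays of each mutant, and 16 of 20 kept their sign, and TwdlV, Osi2, Osi12 and Osi21 turned. The differences of the cluster genes between the mutants were smaller there, at -0.21 for TwdlK, -0.07 for TwdlM, -0.17 for TwdlN and -0.11 for TwdlL. The part of the runs in these results was not tested further.

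Developmental age moved with genotype as well. Matched to the wild type course over 12343 features without the members, the eve arrays at 6 to 10 h lay 0.95 h beyond their label on average, the ftz arrays 0.99 h and the wild type arrays -0.14 h. That course ends at 10 h, so no array can be placed beyond it. At 6 h the eve arrays lay 1.45 to 1.7 h and the wild type arrays 0.65 to 0.85 h beyond their label. At 10 h they lay -0.35 to -0.15 h and -0.6 to -0.45 h from it. The averages, and a fit with this age, can therefore fall short of the shift in age. With this age added to the fit 10 of 15 eve calls, 12 of 17 ftz calls and 19 of 20 calls between the mutants remained. In that fit Osi12 was lower by -0.66 (SE 0.08) in eve and -0.51 (SE 0.09) in ftz mutants, and TwdlM was higher by 0.63 (SE 0.17) and 1.28 (SE 0.18). Called under every alternative and with any single array left out were Osi6, Osi12, TwdlC, TwdlD, TwdlM and TwdlW in eve mutants and Osi12, TwdlF, TwdlM, TwdlN, TwdlV and TwdlW in ftz mutants. Between the mutants these were TwdlK, TwdlM, TwdlN and TwdlP.

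**Figure D3:**
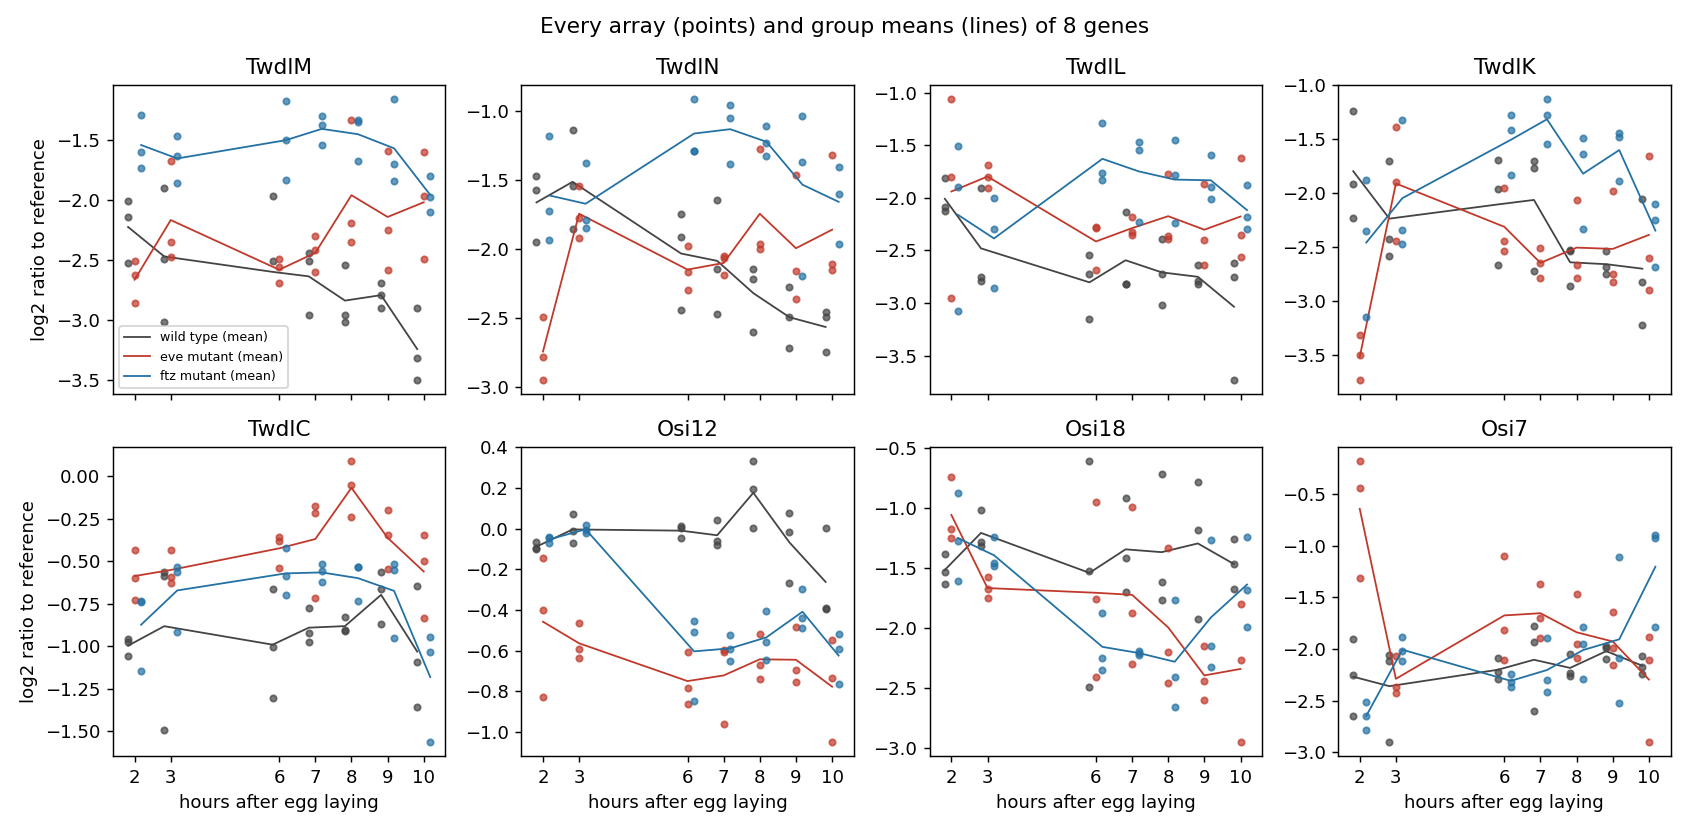
Log2 ratio to the reference on every array (points) and group means (lines) for 8 genes over hours after egg laying, wild type in grey, eve mutants in red and ftz mutants in blue. The ftz points of TwdlM and TwdlN lie above the wild type points at each time from 6 to 10 h, and those of Osi12 lie below them; at 2 h the eve points of TwdlK lie between -3.74 and -3.32.

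Whether a mutant's course over 6 to 10 h had another slope than wild type was tested per gene. In eve mutants 1 member was called, where 3.16% of all features were, and in ftz mutants 1, where 3.53% were. The slope of TwdlM was higher in eve mutants than in wild type by 0.29 log2 units per hour (SE 0.08; limma adjusted p = 0.0482), as its means went from -2.58 to -2.02 in eve mutants and from -2.60 to -3.24 in wild type. That call was lost in 19 of 30 fits without 1 array, with slopes of 0.22 to 0.36. The slope of Osi10b was higher in ftz mutants by 0.0996 per hour (SE 0.03; adjusted p = 0.019), and the call was lost in 4 of 30 fits without 1 array. With slide runs as a term neither slope was called.

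At 2 h, before gastrulation, the eve arrays differed from wild type in many members, and the pattern was not that of later hours. Of 22 Osiris genes 7 were higher and 1 lower, and of 15 Tweedle genes 4 were higher and 3 lower, where 21.6% of all features were called in either direction. Osi7 was at -0.44, -1.31 and -0.18 on the 3 eve arrays and at -1.91, -2.25 and -2.64 in wild type, without overlap. It was higher by 1.62 log2 units (SE 0.28; limma adjusted p = 2.18e-05). TwdlK was at -3.32, -3.50 and -3.74 on the eve arrays and at -1.24, -1.92 and -2.23 in wild type, and was lower by -1.72 (SE 0.34; adjusted p = 0.00014). Its eve values include the lowest value of the series, and whether the probe was above background there was not analysed. In ftz mutants at 2 h Osi7 was at -2.79, -2.51 and -2.64 and TwdlK at -3.15, -2.35 and -1.87.

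The other Osiris genes higher on the eve arrays at 2 h were Osi6 by 1.28 (SE 0.31), Osi9 by 1.17 (SE 0.30), Osi14 by 0.67 (SE 0.22), Osi19 by 0.65 (SE 0.24), Osi24 by 0.61 (SE 0.18) and Osi4 by 0.48 (SE 0.12), and Osi12 was lower by -0.37 (SE 0.13). Of the Tweedle genes TwdlD (1.02, SE 0.25), TwdlW (0.64, SE 0.13), TwdlV (0.61, SE 0.18) and TwdlP (0.54, SE 0.15) were higher, and TwdlJ (-1.32, SE 0.27) and TwdlN (-1.08, SE 0.25) were lower along with TwdlK. With slide runs as a term all 15 remained. The eve arrays carry slide numbers 59 to 61. Those of wild type run from 9 to 71, with none among the eve numbers, and the array numbered 9 stands in another run. Leaving out any 1 of the 6 arrays kept 8 of the 15 calls: Osi6, Osi7, Osi9, TwdlD, TwdlJ, TwdlK, TwdlN and TwdlW. Without replicate 2 of the eve arrays Osi12 was at -0.18, and without replicate 3 of wild type Osi4 was at 0.29, and neither was called.

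Other gene lists also held called genes on the same 2 h arrays, where 21.6% of all features were called in either direction. Counts near that share, as for the epidermal and muscle markers, say nothing particular of a list. Of 15 chitin genes 7 were higher and 1 lower, with Cht7 at 1.76 (SE 0.25) and mmy at 1.20 (SE 0.17), and of 6 tanning genes 3 were higher. Of 9 ZP-domain genes 2 were higher and 1 lower, as were 2 and 1 of 11 regulators, and of 3 ecdysteroid genes spo was lower by -2.37 (SE 0.33). Of the marker lists, 2 of 8 epidermal, 2 of 5 tracheal and 2 of 5 midgut markers were higher, 1 of 6 muscle markers was lower, and 1 of 6 neuronal markers was higher and 1 lower. Of 6 markers of haemocytes and fat body 2 were higher and 3 lower, with Lsp2 at -1.44 (SE 0.22), and no amnioserosa or glial marker was called. Their part in the values of the members was not tested.

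The difference of eve from wild type was itself compared between 2 h and 6 to 10 h, a test added after the 2 h arrays had been seen. Of 37 members 12 differed, 8 Osiris genes more positive at 2 h and 4 Tweedle genes more negative, where 22.6% of all features were called. TwdlM stood at 0.59 over 6 to 10 h and at -0.44 at 2 h, a difference of -1.03 (SE 0.29; limma adjusted p = 0.00797). TwdlN changed from 0.33 to -1.08, a difference of -1.41 (SE 0.27; adjusted p = 0.000116). Osi18 changed from -0.63 to 0.46, where the 2 h value was not called, a difference of 1.09 (SE 0.39; adjusted p = 0.0372). Osi12 was not among them. It was lower by -0.37 at 2 h, a call lost in 4 of 6 fits without 1 array, and by -0.67 over 6 to 10 h. On the arrays labelled eve mutant at 3 h it was lower too.

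**Figure D4:**
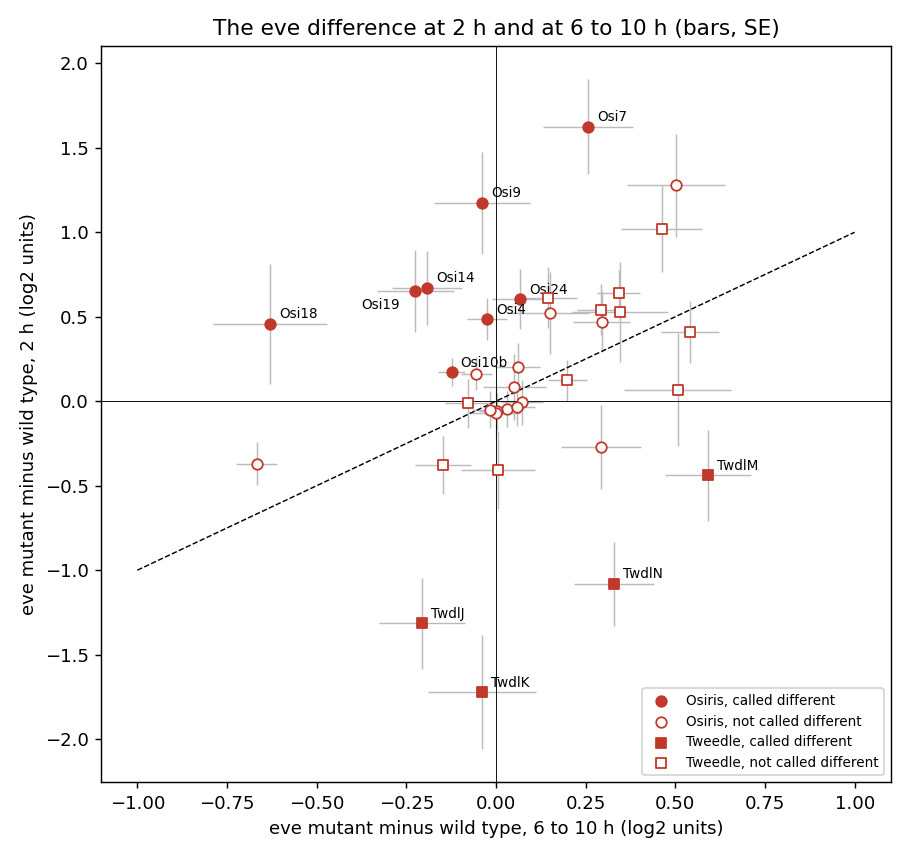
The eve minus wild type difference over 6 to 10 h (horizontal) and at 2 h (vertical) for the 37 genes, in log2 units with SE bars; circles are Osiris and squares Tweedle genes, filled where the 2 differences were called different, and the dashed line marks equal values. The 8 filled circles lie above the line, with Osi7 at 1.62 at 2 h, and the 4 filled squares (TwdlJ, TwdlK, TwdlM, TwdlN) lie below it.

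In ftz mutants at 2 h no member was called (limma, Benjamini-Hochberg), with 3 at an unadjusted p under 0.05, where 6.1% of all features were called. The differences ran from -0.66 for TwdlK to 0.68 for TwdlM. Fitting only these 6 arrays or adding the replicate number gave 2 calls each, and array weights gave 5. At 3 h 2 members were higher and 1 lower on the arrays labelled eve mutant, where 9.57% of all features were called, and 3 were higher and 1 lower in ftz mutants, where 13.7% were.

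TwdlV was at -0.98, -0.78 and -1.12 on the arrays labelled eve mutant at 3 h, at -1.07, -1.37 and -1.09 in ftz mutants and at -1.54, -1.92 and -1.70 in wild type. Every mutant array lay above every wild type array. The differences were 0.76 (SE 0.18; limma adjusted p = 0.00442) and 0.54 (SE 0.18; adjusted p = 0.0369). Osi12 was at -0.63, -0.59 and -0.46 on the arrays labelled eve mutant and at -0.07, -0.01 and 0.07 in wild type, a difference of -0.56 (SE 0.13; adjusted p = 0.00257), while in ftz mutants it was at -0.02, 0.02 and -0.01. So Osi12 in ftz mutants lay within the wild type values at 3 h and below them from 6 h. TwdlM was at -1.86, -1.47 and -1.63 in ftz mutants at 3 h against -1.90, -3.02 and -2.49, higher by 0.81 (SE 0.27; adjusted p = 0.0338). Without replicate 2 of wild type that difference was 0.54 and not called. Osi10b was higher by 0.30 (SE 0.08) on the arrays labelled eve mutant, and in ftz mutants Osi3 was higher by 0.35 (SE 0.11) and Osi17 lower by -0.46 (SE 0.13). With slide runs as a term only Osi12 on the arrays labelled eve mutant was called at 3 h. Those arrays carry slide numbers 94 to 96, the wild type arrays 6 to 8 and the ftz arrays 63 to 68.

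Tweedle genes, in the cluster and over the family, were more alike over the 21 groups than Osiris genes were. The correlation of group means had a median of 0.44 over the 36 pairs of measured genes of the Tweedle cluster, from -0.67 to 0.87. Over all 105 Tweedle pairs the median was 0.37. Neighbouring Osiris genes of the 3R cluster had a median of 0.02 over 14 pairs, all Osiris pairs 0.06, and pairs between the families 0.03. The 13 Osiris genes that stayed within 0.5 of the reference in every wild type group moved little there, which limits what their correlations can show. Correlations of pairs of other features were not computed. TwdlP ran against the cluster, with a median of -0.50 with its other genes apart from TwdlD. The 7 genes left when TwdlD and TwdlP were set aside, a choice made after their values were seen, had a median of 0.66 over 21 pairs. Values of an array share its RNA and its normalization, and within groups the arrays of those 21 pairs also varied together, with a median of 0.47. Over 9255 other named genes the mean Osiris profile was most like those of CG15022 (r = 0.89), CG18473, CG15537, Mdr65 and LManVI. The mean Tweedle profile was most like those of CG33128 (r = 0.86), CG12679, CG10958, CG13674 and CAH15, all over 21 group means.

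Genes of the lists drawn up for chitin, cuticle and their regulators showed no single direction in the mutants. Over all features 19.6% were called higher and 19.8% lower in eve mutants and 20.7% and 19.7% in ftz mutants, and counts near those shares, as for the ZP-domain genes and regulators in ftz mutants, say nothing particular of a list. Of 15 genes of chitin synthesis, deacetylation and organisation 5 were higher and 2 lower in eve mutants, and 7 higher and 1 lower in ftz mutants, over 6 to 10 h. The knk gene, whose product organises chitin, was higher by 0.35 (SE 0.08) and 0.36 (SE 0.08), and Cht7, a chitinase gene, by 0.33 (SE 0.11) and 0.38 (SE 0.11). The chitin synthase gene Chs2 was lower by -0.44 (SE 0.05) and -0.28 (SE 0.05), and was the only chitin gene called lower in ftz mutants. The other chitin synthase gene of the list, kkv, was not measured, so Chs2 cannot stand for it. Of 9 ZP-domain genes 3 were higher and 2 lower in eve mutants, and 2 higher and 1 lower in ftz mutants, with tyn at 0.38 (SE 0.08) and 0.57 (SE 0.08) and dyl at -0.85 (SE 0.16) and -0.72 (SE 0.16). Of 11 regulators 4 were higher and 1 lower in eve mutants, and 3 higher and 1 lower in ftz mutants. Among them Hr39 was higher by 0.26 (SE 0.05) and 0.28 (SE 0.05), while grh, an activator of epidermal barrier genes, was higher in eve mutants by 0.14 (SE 0.04) and not called in ftz mutants, at 0.03 (SE 0.04). Of 6 tanning genes, which colour and harden cuticle, none was higher, with 2 lower in eve and 3 in ftz mutants, among them e at -0.17 (SE 0.05) and -0.27 (SE 0.05). Of 3 measured ecdysteroid genes dib was lower in both, at -0.42 (SE 0.06) and -0.62 (SE 0.06).

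Markers of other tissues were called with genotype too, some lists at no more than the shares over all features just given. Over 6 to 10 h 4 of 8 epidermal markers were higher in eve mutants and 3 of 8 in ftz mutants, and none was lower. Their median levels were 0.28 in wild type (-0.72 to 0.58 over the 8 genes), 0.50 in eve mutants (-0.64 to 0.81) and 0.36 in ftz mutants (-0.22 to 0.79). Of 6 muscle markers 5 were higher in eve and all 6 in ftz mutants, with median levels of -2.12 in wild type (-3.33 to -1.29), -1.77 in eve mutants (-2.97 to -0.94) and -1.67 in ftz mutants (-2.60 to -0.78). Of 5 tracheal markers 1 was higher and 1 lower in eve mutants, and 4 higher and 1 lower in ftz mutants, with medians of -1.43 (-1.57 to 0.59), -1.26 (-1.59 to 0.36) and -0.80 (-1.04 to 0.42) in wild type, eve and ftz mutants. Of these 5 Gasp, serp and verm also stand among the chitin genes. Between the mutants 4 of 5 tracheal, 3 of 6 muscle and 3 of 6 neuronal markers were lower in eve mutants and none higher, and 1 of 8 epidermal markers was lower. In the same comparison 1 midgut marker was higher and 2 lower, 2 amnioserosa markers higher and 1 lower, 1 marker of haemocytes and fat body higher and 1 lower, and no glial marker was called. Of 6 neuronal markers 1 was higher and 2 lower in eve mutants, and 1 was lower in ftz mutants. Of 5 midgut markers 1 was higher and 1 lower in eve mutants, and 2 were higher in ftz mutants. Of 6 amnioserosa markers 1 was lower in eve mutants, and 1 was higher and 2 lower in ftz mutants. Of 6 markers of haemocytes and fat body 2 were higher and 2 lower in eve mutants, and 1 higher and 2 lower in ftz mutants. Of 2 glial markers none was called in eve mutants and 1 was higher in ftz mutants. The part of these tissues in the values of the Tweedle and Osiris genes was not tested.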

How the data were processed

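The deposited values are ratios on a log scale, taken here as log2 of sample over reference, made by the authors with limma, per the submitters' processing notes, which give no version. Their log base and direction are not stated. Values within 4 units of 0 and 5 cellularization genes, 4 of them higher at 2 h than at 10 h, were read as log2 of sample over reference. Array values already shared 1 distribution (sorted values differed by at most 0.000784 between arrays), so no further normalization was applied. Scanner settings, background correction and probe intensities were not used here.

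Of 20000 rows, 6772 were blank and 13228 held a value on every array. Rows were named through the platform annotation (10096 with 1 symbol, 220 with several, 2912 unnamed), with symbols updated by gene ID through RefSeq, and rows of a symbol were averaged, giving 12424 features. No probe or genome sequence was used here. Levels were fitted in limma 3.58.1 (R 4.3.3) with 1 mean per group over 63 arrays (42 residual degrees of freedom), with Benjamini-Hochberg adjustment over all features, after a test on simulated data. Differences over 6 to 10 h are means of the 5 differences by time. Levels from 6 h on weight each time equally. Array values are given for up to 4 called members with the largest differences in each comparison over 6 to 10 h and up to 2 at 2 and 3 h, and up to 4 called genes are named per list and comparison. The members, the lists of cuticle, regulator and marker genes and the tests were chosen with earlier results of these data known. Same-numbered eve and ftz arrays at 6 to 10 h did not deviate together (r of -0.26 to 0.11, over 0.1 in 1 of 15 pairs), so numbers were not used to pair arrays. Whether arrays of 1 genotype that share a series number over 6 to 10 h deviate together was not examined.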

Additional observations from a re-analysis of the deposited data

Results flagged for a closer look

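Tests of a difference between differences singled out 14 values. The slope of TwdlM over 6 to 10 h in eve mutants less that in wild type was 0.286 log2 units per hour, with means going from -2.58 to -2.02 in eve mutants and from -2.60 to -3.24 in wild type. That call was lost in 19 of 30 fits without 1 array. The slope of Osi10b in ftz mutants less that in wild type was 0.0996 per hour, where means went from 0.06 to 0.16 in ftz mutants and from 0.28 to 0.00383 in wild type, and that call was lost in 4 of 30 such fits.

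The other 12 compare the eve minus wild type difference at 2 h with the same difference over 6 to 10 h. It was more positive at 2 h by 1.37 log2 units for Osi7, 1.21 for Osi9, 1.09 for Osi18, 0.88 for Osi19, 0.86 for Osi14, 0.54 for Osi24, 0.51 for Osi4 and 0.30 for Osi10b. It was more negative at 2 h, at -1.68 for TwdlK, -1.41 for TwdlN, -1.11 for TwdlJ and -1.03 for TwdlM. Over all features 22.6% were called in this comparison. With slide runs as a term 11 of the 12 remained, and Osi18 was at 1.02 (adjusted p = 0.0571 by limma). Without wild type replicate 3 at 2 h the value of Osi4 was 0.31 and not called. The groups of 3 arrays were too small for a test of single arrays that stand apart.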

How the results depend on the processing

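No member called in a comparison changed sign in any refit; the within-run values stand in the text above. Members called over 6 to 10 h numbered 15 in eve mutants, 17 in ftz mutants and 20 between them. With the 5 times of each numbered series averaged, which leaves 3 values per genotype, they numbered 7, 9 and 7. With slide runs as a block they numbered 12, 7 and 7. Fitting only the groups compared gave 2 calls in wild type between 2 and 3 h (0 with all arrays), 0 from 3 to 6 h (1), 0 from 6 to 10 h (3), 2 in ftz mutants at 2 h (0), 6 on the arrays labelled eve mutant at 3 h (3), and 0 for each slope (1). Array weights gave 4, 0, 5, 10, 7 and 0 for wild type 2 to 3 h, wild type 6 to 10 h, ftz at 2 h, eve at 3 h, ftz at 3 h (4 in the fit reported) and the eve slope. Slide runs gave 1 for eve and 0 for ftz at 3 h, and 0 for each slope. Centring on stable features gave 1 from 6 to 10 h in wild type and 0 for the eve slope. Robust moderation gave 2 for ftz at 3 h and 0 for the eve slope. The cause of these moves was not tested.

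Leaving out each array in turn gave 13 to 17 calls in eve mutants, 15 to 18 in ftz mutants, 16 to 20 between them, 0 to 1 in wild type from 2 to 3 h, 1 to 2 from 3 to 6 h, 0 to 3 from 6 to 10 h, 10 to 15 in eve mutants at 2 h, 0 in ftz mutants at 2 h, 2 to 3 and 1 to 3 at 3 h, 0 to 1 for each slope, and 8 to 13 for eve at 2 h against later. TwdlF and Osi20 in eve mutants were lost in 9 of 30 such fits, Osi4 and Osi8 in ftz mutants in 17 and 18, and TwdlQ and Osi2 between the mutants in 20 and 16. Without the 9 arrays at 2 h, an alternative chosen after seeing the data, the counts over 6 to 10 h were 15, 16 and 19. Replicate numbers as a block (replicate block) gave 19 calls between the mutants, 11 for eve at 2 h, 2 for ftz at 2 h, 4 for eve at 3 h and 3 for ftz at 3 h. Centring moved arrays by up to 0.109 log2 units. With ratios alone, signal over background could not be weighed for any gene.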
